A study of Drosophila melanogaster with 90 samples.

Results

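The yolk protein genes Yp1, Yp2 and Yp3 were followed in heads of female Drosophila melanogaster, as the 3 rows with these FlyBase symbols among the 9027 rows of a raw gene count table. They were chosen by name and not by a measured value, though with earlier results of these data known. All 3 passed the filter on low counts. All 3 were found together at the top of the head transcript pool. Yp2 differed after mating to wildtype males: its level was lowest at 12 h in virgin heads and in heads of females mated without Sex Peptide, and it stayed near its earlier level in heads of females mated with Sex Peptide.

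The yolk proteins are the main protein store of the fly egg. They are made by the fat body, the insect counterpart of liver and adipose tissue, which also lines the head capsule, and by the follicle cells of the ovary. They are secreted into the haemolymph or the egg chamber and taken up by the growing oocyte through Yolkless, a receptor of the low density lipoprotein receptor family. All 3 proteins are related to lipases and are made by females, under the control of Doublesex, the last factor of the sex determination cascade, which binds the fat body enhancers of Yp1 and Yp2. Juvenile hormone, ecdysone and feeding are known to affect their synthesis. Sex Peptide is a short seminal fluid peptide that males pass to females at mating and that is known to raise egg laying and to lower the readiness to mate again.

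The groups were heads of Canton-S females of 3 kinds. SPplus females had mated with wildtype males. SPmin females had mated with males null for Sex Peptide, whose allele the labels do not name. V females were virgins frozen alongside. Each kind was sampled 0.5 h after mating, then hourly from 1 to 6 h, and again at 8, 12 and 24 h, which gives 10 time points. All were reared at 25 °C on yeast and glucose food, with 12 h of light from 8 AM, and matings took place in a 3 h window that closed at 11 AM, so the 12 h heads were taken in the dark phase and the 24 h heads in the next morning. The labels give neither the age of the females nor the number of heads in a sample. The whole series was run 3 times, as repeats A, B and C, which the study counts as biological replicates. Of 90 samples, 87 libraries were analysed. Not analysed here were 3 samples of repeat C (SPplus at 2 h, SPplus at 3 h, V at 6 h), which left 27 groups of 3 libraries and 3 groups of 2.

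Total counts per library ran from 15411046 to 103387056, with a median of 19740478. The deepest library, repeat A of SPplus at 24 h, did not stand apart in Yp2 from the other libraries of its group. Defining markers of neurons, photoreceptors and glia were well counted: all 10 listed genes were tested, and their summed level was 28330 to 39078 CPM per library. CPM is the read count relative to library size after trimmed mean of M values (TMM) scaling, and yolk gene levels are given in kCPM (1000 CPM). The 3 SPplus libraries at 24 h spread more than those of any other group, with a median SD over genes of 0.158 on the log2 CPM scale. Heads were bulk samples, so fewer fat body cells and less RNA per cell cannot be told apart.

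Yp1 (FBgn0004045) lies on chromosome X at 10053811 to 10055498 on the forward strand of the BDGP6 (dm6) assembly and has 2 exons with 1611 exonic bases. Yp2 (FBgn0005391) lies beside it on the reverse strand, at 10050951 to 10052636, with 2 exons and 1618 exonic bases. Their starts face each other across 1174 bases in which no other gene is annotated. This shared interval is where the fat body enhancer that serves both genes is known to lie. Yp3 (FBgn0004047) is a separate locus 3704047 bases away on the same chromosome, at 13759546 to 13761547 on the forward strand, with 3 exons and 1868 exonic bases. An antisense RNA gene, asRNA:CR45601, overlaps Yp1 on the other strand. It had 1053 to 15940 counts per library, 0.111% to 0.387% of the Yp1 count. The use of strand in counting is not given in the sources used here, so reads of this pair may be assigned to either.

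The yolk genes dominated the count table. Together they took 6.73% to 17.7% of all counts in a library, with a median of 12.4%. The lowest share was in repeat A of V at 24 h and the highest in repeat C of V at 0.5 h. Per kilobase of exon, Yp1 was the first of 8974 genes in all 87 libraries, while Yp2 and Yp3 each held a rank between 2 and 4. On this scale, in kCPM per kilobase averaged over libraries, Yp1 was at 31.7, Yp3 at 21.3 and Yp2 at 20.3. The next gene, ninaE, which encodes the main rhodopsin of the eye, was at 15.3. Per length Yp1 was thus the most abundant of the 3, and Yp2 and Yp3 were close to each other.

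Over all libraries the level of Yp1 ran from 27.7 to 79.4 kCPM, with a median of 50.3 and a 2.86-fold range. Yp2 had the widest range, from 13.8 to 59.9 kCPM with a median of 33, which is 4.35-fold. Yp3 ran from 20.5 to 65.6 kCPM with a median of 39.2, a 3.20-fold range. The treatments overlapped broadly when time was ignored. The Yp2 medians were 34.3 kCPM in SPplus, 33 in SPmin and 31.2 in V, with lowest libraries at 23.9 in SPplus, 16 in SPmin and 13.8 in V. For Yp2 and Yp1 the widest spread was among V libraries, and V also held both ends of the Yp3 range.

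**Figure D1:**
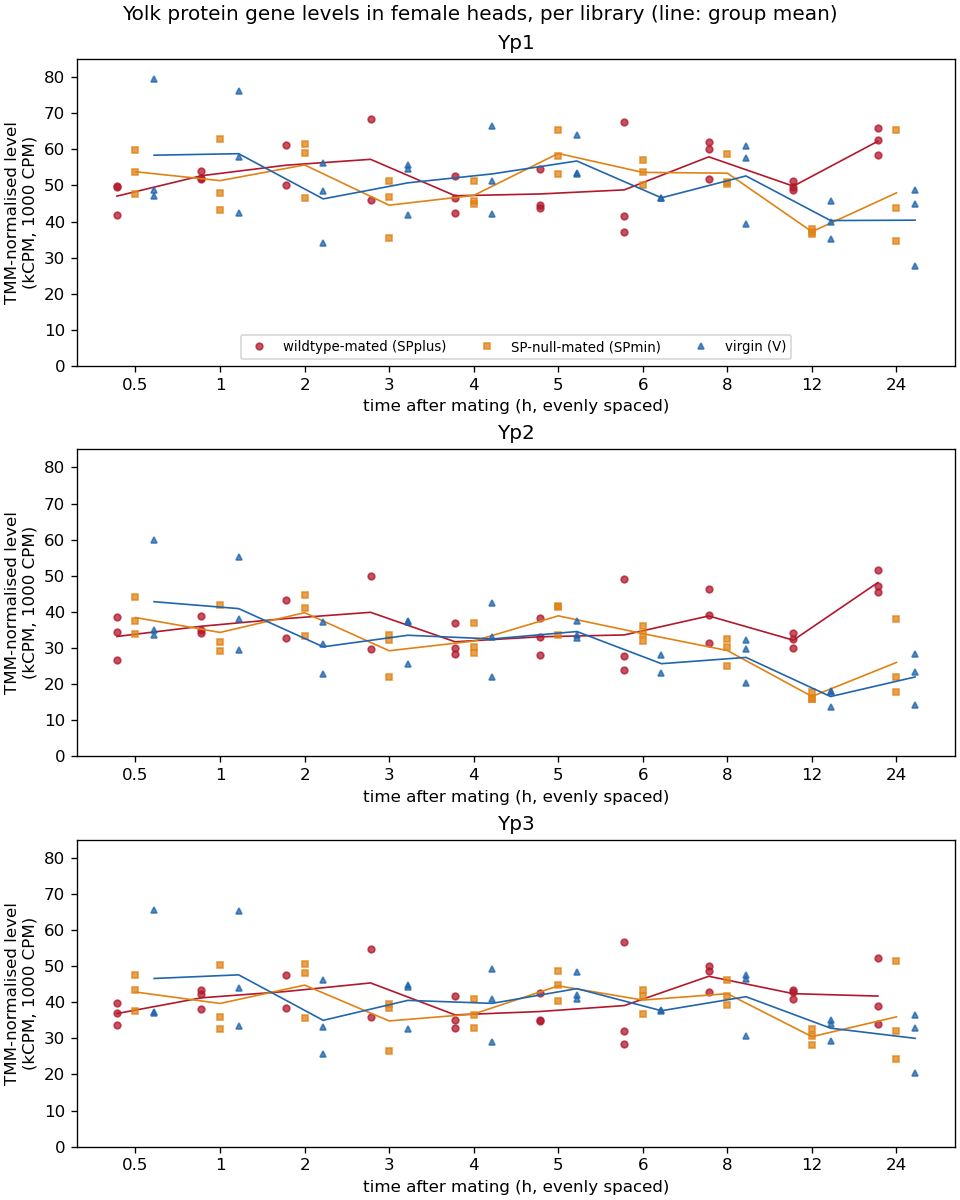
Level of each yolk protein gene in kCPM (TMM-scaled) against hours after mating, with 1 point per library and a line through the group means of SPplus, SPmin and V. Yp2 is lowest at 12 h in SPmin and V, with means of 16.6 in both, while the SPplus mean at 12 h is 32.2 and the 3 SPplus libraries lie above all SPmin and V libraries.

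The time course of Yp2 differed in shape between the treatments. Read in order of time from 0.5 to 24 h, its mean level in SPplus heads was 33.2, 36, 38.1, 39.9, 31.7, 33.1, 33.6, 38.9, 32.2 and 48.1 kCPM. In SPmin heads the means in the same order were 38.4, 34.3, 39.8, 29.2, 31.9, 38.9, 34, 29.3, 16.6 and 26 kCPM. In V heads they were 42.8, 40.9, 30.3, 33.5, 32.5, 34.6, 25.7, 27.4, 16.6 and 22 kCPM. Thus SPmin and V had the same low point at 12 h and a partial return at 24 h, and SPplus had its highest mean at 24 h. The highest mean was 1.52-fold the lowest in SPplus, 2.40-fold in SPmin and 2.59-fold in V.

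Yp2 changed with time in SPmin heads (adjusted p = 0.00234) and in V heads (adjusted p = 0.000428). These are F tests of the 10 time points of a treatment in edgeR's quasi-likelihood model with Benjamini-Hochberg adjustment. Of the 3 genes, Yp2 alone was called by this test, in SPmin and in V, where 36.5% and 29% of all genes tested were called. The SPmin call was lost without repeat A (adjusted p = 0.0543) and without repeat B (adjusted p = 0.102), while the V call was kept whichever repeat was left out. In SPplus the test gave an adjusted p of 0.416 for Yp2, 0.569 for Yp1 and 0.866 for Yp3, where 52.6% of all genes were called. Yp1 had adjusted p-values of 0.242 in SPmin and 0.192 in V, and Yp3 had 0.499 in SPmin and 0.253 in V. Most steps of these courses were within the spread of the repeats, but some were not, among them late steps of Yp2. In SPmin its libraries spanned 25 to 32.6 kCPM at 8 h and 16 to 17.8 at 12 h. In V they spanned 20.3 to 32.2 kCPM at 8 h and 13.8 to 18 at 12 h. In SPplus they spanned 30 to 34.2 kCPM at 12 h and 45.5 to 51.7 at 24 h. When the 10 means of a treatment were ranked, neighbouring groups overlapped throughout, except between 24 h and 12 h for Yp2 in SPmin and at 1 step of the order for Yp1 in SPplus. Such ranking sets similar means side by side, so this overlap says little about steps in time.

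Yp1 and Yp3 had shallower courses. The highest Yp1 mean was 1.32-fold the lowest in SPplus, 1.58-fold in SPmin and 1.46-fold in V, with the lowest mean at 12 h in SPmin and V. At 12 h Yp1 averaged 49.8 ± 1.23 kCPM in SPplus, 37.2 ± 0.660 in SPmin and 40.3 ± 5.27 in V (SD, n = 3 each). The highest Yp3 mean was 1.29-fold the lowest in SPplus, 1.47-fold in SPmin and 1.59-fold in V. Yp3 averaged 42.4 ± 1.22 kCPM in SPplus, 30.5 ± 2.16 in SPmin and 32.8 ± 3.11 in V at 12 h (SD, n = 3 each). All 3 genes thus had their SPplus mean above the other treatments at 12 h.

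The comparison of SPplus with V asks what mating with a full ejaculate does to the genes. Yp2 was higher in SPplus heads at 12 and 24 h, by close to 2-fold. At 12 h the level of Yp2 in repeats A, B and C was 32.3, 30.0 and 34.2 kCPM in SPplus, against 13.8, 18 and 17.9 kCPM in V. At 24 h it was 47.1, 51.7 and 45.5 kCPM in SPplus, against 14.3, 23.3 and 28.4 kCPM in V. At both times all SPplus libraries lay above all V libraries, and repeat A was the lowest V library.

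The log2 fold change of Yp2 in SPplus over V was 0.96 at 12 h (SE 0.25, 95% interval 0.46 to 1.45, adjusted p = 0.0102), which is 1.94-fold. At 24 h it was 1.13 (SE 0.25, 95% interval 0.63 to 1.63, adjusted p = 0.000689), which is 2.19-fold. At 12 h 1 of the 3 yolk genes was called, beside 6.32% of all genes, and at 24 h 2 of 3 were called, beside 29.2% of all genes. The 24 h call was lost when the libraries of that time were fitted alone (log2 fold change 1.11, adjusted p = 0.0786). The 12 h call was lost without repeat A (adjusted p = 0.149), without repeat B (adjusted p = 0.0950) and without the V library of repeat A alone (adjusted p = 0.0764).

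Yp1 was the second gene called at 24 h. Its level was 62.4, 65.9 and 58.3 kCPM in SPplus, against 27.7, 44.8 and 48.6 kCPM in V. The SPplus libraries were again all higher, and repeat A of V was far below the other 2. In SPplus over V its log2 fold change was 0.62 (SE 0.21, 95% interval 0.21 to 1.04, adjusted p = 0.0215). The call was lost without repeat A (0.40, adjusted p = 0.243), without repeat B (0.65, adjusted p = 0.0941) and in the separate fit of 24 h (0.61, adjusted p = 0.191). Of single libraries, the V library of repeat A (0.41, adjusted p = 0.188) and the SPplus library of repeat C (0.67, adjusted p = 0.0560) were each needed for it.

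Yp3 was not called against V. At 24 h it stood at 39.1, 52.1 and 33.9 kCPM in SPplus and at 20.5, 32.9 and 36.6 kCPM in V, so the groups overlapped. Its log2 fold change was 0.48 (SE 0.24, adjusted p = 0.123), and 0.77 without repeat C (adjusted p = 0.0412). At 12 h, Yp3 was at 41, 42.7 and 43.4 kCPM in SPplus and at 29.3, 34 and 35.1 kCPM in V. Here the groups did not overlap, with a log2 fold change of 0.37 (adjusted p = 0.443), and Yp3 was called in a separate fit of the 12 h libraries (adjusted p = 0.0428). Yp1 at 12 h was also higher in all SPplus libraries, at 49.5, 48.8 and 51.2 kCPM, against 35.3, 39.8 and 45.8 kCPM in V, with a log2 fold change of 0.31 (adjusted p = 0.484). All 3 yolk genes were thus separated in this direction at 12 h, as were 14.7% of all genes, and 2 of 3 at 24 h, as were 17.4% of all genes.

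Before 12 h no yolk gene was called in SPplus against V. From 0.5 to 8 h the log2 fold changes of Yp2 were -0.37, -0.18, 0.33, 0.25, -0.04, -0.06, 0.39 and 0.50. The last of these, with an SE of 0.25, had an adjusted p of 0.323. In the same order 0.266%, 0.532%, 1.48%, 4.51%, 0.355%, 2.67%, 1.05% and 3.67% of all genes were called. At 8 h Yp2 had 39, 31.3 and 46.3 kCPM in SPplus, against 29.7, 20.3 and 32.2 kCPM in V, so only the lowest SPplus library lay within the range of V. The 0.5 h difference went the other way for all 3 genes. It carries repeat C of V, which held the highest level of all libraries for Yp1 (79.4 kCPM), Yp2 (59.9) and Yp3 (65.6).

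Over the whole series, Yp2 was called in SPplus against V in the F test of all time points (adjusted p = 0.000902), where 28.6% of all genes were called. Its mean difference over the time points was 0.29 on the log2 scale (SE 0.08, adjusted p = 0.00523), with 26.1% of all genes called. The difference also changed with time (adjusted p = 0.0122), with 14.2% of all genes called. Without repeat A or B the test of all time points gave an adjusted p of 0.0688 or 0.0643 and that of the change with time 0.166 or 0.224, and without repeat A the mean difference was 0.21 (adjusted p = 0.132). Yp1 had adjusted p-values of 0.167, 0.499 and 0.200 in these 3 tests, and Yp3 had 0.391, 0.577 and 0.419. No difference between Yp2 and the other yolk genes was itself tested.

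**Figure D2:**
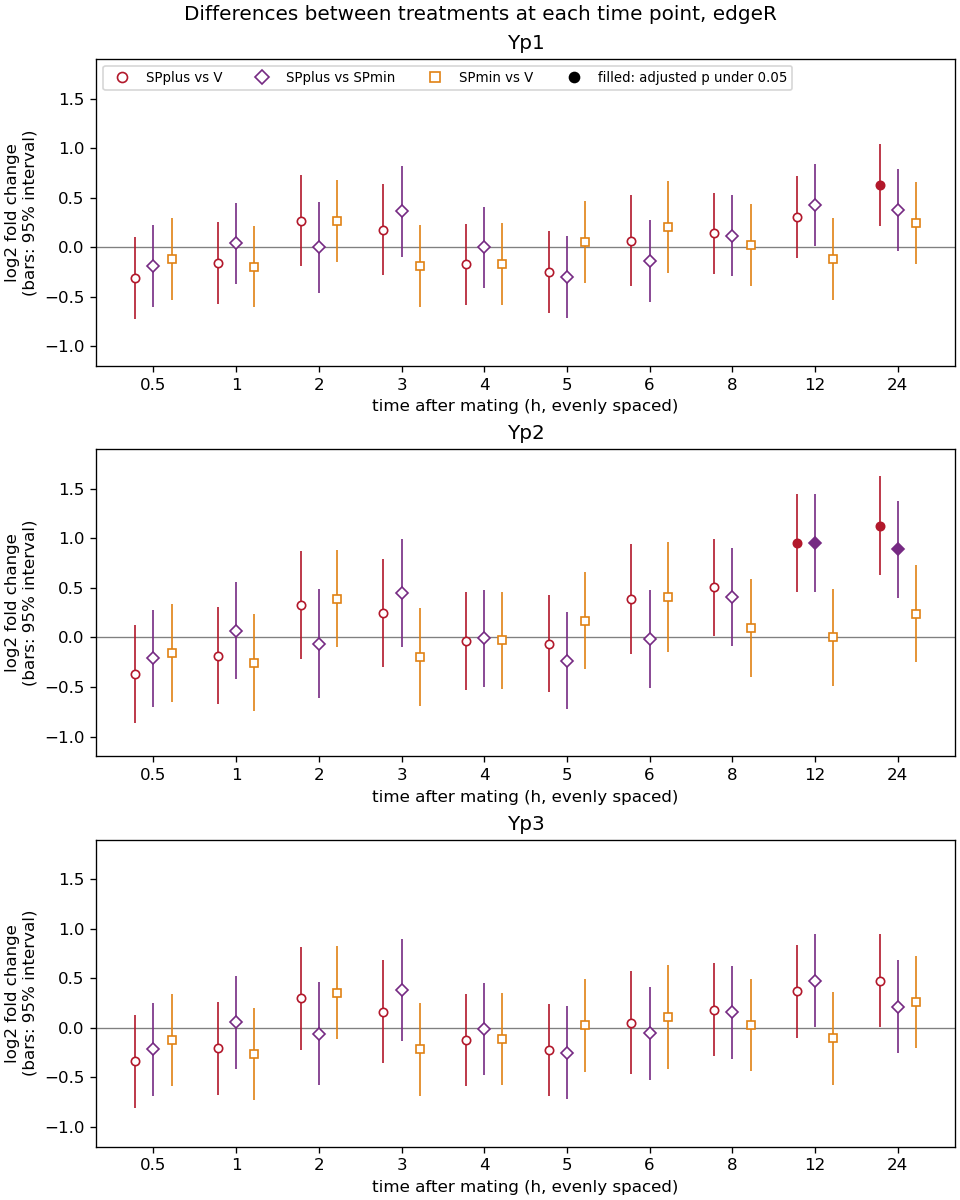
Log2 fold change of each yolk protein gene at each time point in SPplus over V, SPplus over SPmin and SPmin over V, with 95% intervals from the edgeR model. Yp2 reaches 0.96 at 12 h and 1.13 at 24 h in SPplus over V, and 0.96 and 0.89 in SPplus over SPmin, while the SPmin over V values stay near 0 at 12 h.

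The comparison of SPplus with SPmin addresses the transfer of Sex Peptide, as both groups had mated. It uses the same SPplus libraries as the comparison with V, so that the values of both are not independent. Yp2 was again higher in SPplus at 12 and 24 h. At 12 h SPplus had 32.3, 30.0 and 34.2 kCPM, against 17.8, 16 and 16 kCPM in SPmin. The log2 fold change was 0.96 (SE 0.25, 95% interval 0.46 to 1.45, adjusted p = 0.00866). At 24 h SPplus had 47.1, 51.7 and 45.5 kCPM, against 17.9, 22 and 38.1 kCPM in SPmin, with repeat C of SPmin well above the other 2. Here the log2 fold change was 0.89 (SE 0.25, 95% interval 0.39 to 1.38, adjusted p = 0.00637). The SPplus libraries were above all SPmin libraries at both times.

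At each of these times 1 of the 3 yolk genes was called, beside 9.82% of all genes at 12 h and 28.3% at 24 h. The SPplus libraries were all above the SPmin libraries for 16.8% of all genes at 24 h. No yolk gene was called before 12 h by edgeR, which called 0% of all genes up to 4 h and 0.754%, 3.31% and 5.87% at the next 3 times. Up to 4 h, 166 to 608 genes had an unadjusted p under 0.05, and DESeq2 called 4 genes at 4 h and 0 before. The 12 h call was lost without repeat B (adjusted p = 0.139). The 24 h call was lost without repeat A (0.69, adjusted p = 0.108), without repeat B (0.72, adjusted p = 0.107), without the SPmin library of repeat A (0.68, adjusted p = 0.0709) and in the separate fit of that time (0.87, adjusted p = 0.120). Across all time points Yp2 was called (adjusted p = 0.0128, 18.5% of all genes called), with adjusted p-values of 0.271 when repeat A was left out and 0.177 when B was. In this test Yp1 had an adjusted p of 0.401 and Yp3 of 0.637. The mean Yp2 difference over time points was 0.22 (SE 0.08, adjusted p = 0.0630, 10.8% of all genes called) and the change of the difference with time had an adjusted p of 0.0515 (11.8% called). With the replicate block these 2 adjusted p-values were 0.0320 and 0.0152.

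Yp1 and Yp3 were separated between the mated groups at 12 h without being called. Yp1 was at 49.5, 48.8 and 51.2 kCPM in SPplus and at 37.9, 37 and 36.6 kCPM in SPmin, with a log2 fold change of 0.42 (SE 0.21, adjusted p = 0.212). Yp3 was at 41, 42.7 and 43.4 kCPM in SPplus and at 32.5, 30.7 and 28.2 kCPM in SPmin, with a log2 fold change of 0.48 (SE 0.24, adjusted p = 0.213). All 3 yolk genes had every SPplus library above every SPmin library at this time, as did 18.5% of all genes. In a separate fit of the 12 h libraries both were called, with adjusted p-values of 0.0205 for Yp1 and 0.00893 for Yp3. At 24 h the log2 fold changes were 0.38 for Yp1 (adjusted p = 0.177) and 0.21 for Yp3 (adjusted p = 0.529). Repeat C of SPmin, with 65.3 kCPM of Yp1 and 51.4 of Yp3, lay inside the SPplus range for both genes. Without that library Yp1 had a log2 fold change of 0.66 and was called (adjusted p = 0.0336).

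The comparison of SPmin with V, which shares its V libraries with that of SPplus and V, shows mating without Sex Peptide. No yolk gene was called at any single time point by edgeR or DESeq2, and the smallest unadjusted edgeR p was 0.123. Among all genes edgeR called 0.676%, 0.521%, 4.55%, 2.98%, 2.19%, 0.0111%, 0%, 0.0111%, 0% and 0.0554% in order of time. At the times of 0%, 6 and 12 h, DESeq2 also called 0 genes, and 456 and 339 had an unadjusted edgeR p under 0.05. In the F test of all time points the adjusted p-values were 0.877 for Yp1, 0.819 for Yp2 and 0.893 for Yp3, where 7.06% of all genes were called. The mean Yp2 difference over time points was 0.07 (adjusted p = 0.715, 2.03% of all genes called), and its change with time had an adjusted p of 0.853 (5.62% called). At 12 h the log2 fold change of Yp2 was 0.0030, with a 95% interval from -0.49 to 0.49. At 24 h it was 0.24, with a 95% interval from -0.25 to 0.73. These intervals do not reach the fitted Yp2 differences of SPplus over V, 0.96 at 12 h and 1.13 at 24 h, but leave room for smaller ones. They overlap the 95% intervals of those differences, which start at 0.46 at 12 h and 0.63 at 24 h.

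At 6 h the 3 SPmin libraries stood above the 2 V libraries for Yp1 and Yp2, as they did for 12.8% of all genes. Yp1 was at 50.03, 53.8 and 57 kCPM in SPmin and at 46.6 kCPM in both V libraries. Yp2 was at 32.1, 33.8 and 36.1 kCPM in SPmin and at 28.2 and 23.1 kCPM in V, with a log2 fold change of 0.41 (adjusted p = 0.941). This separation rests on 2 V libraries.

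The ratio of Yp2 to Yp1 counts within a library removes what both genes share in that library, including its depth and its scaling. It showed the same course with a far smaller spread. The pooled SD of the log2 ratio within groups was 0.0969, against 0.314 for the level of Yp2. In order of time from 0.5 to 24 h, the mean ratio in SPplus was 0.702, 0.684, 0.683, 0.689, 0.673, 0.694, 0.680, 0.667, 0.645 and 0.773. In SPmin it was 0.713, 0.669, 0.715, 0.654, 0.674, 0.661, 0.634, 0.548, 0.446 and 0.533. In V it was 0.729, 0.693, 0.656, 0.657, 0.603, 0.610, 0.551, 0.520, 0.411 and 0.540. Yp2 thus lost ground to its neighbour through the day in SPmin and V heads and hardly at all in SPplus heads. This ratio was not tested.

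At 8 h the ratio in repeats A, B and C was 0.651, 0.604 and 0.748 in SPplus, 0.496, 0.554 and 0.594 in SPmin, and 0.514, 0.518 and 0.529 in V. At 12 h it was 0.654, 0.614 and 0.668 in SPplus, 0.469, 0.432 and 0.436 in SPmin, and 0.39, 0.452 and 0.391 in V. At 24 h it was 0.755, 0.784 and 0.781 in SPplus, 0.514, 0.503 and 0.583 in SPmin, and 0.516, 0.519 and 0.583 in V. All SPplus libraries were above all V libraries at 5, 6, 8, 12 and 24 h, and above all SPmin libraries at 6, 8, 12 and 24 h. SPmin libraries were all above V libraries at 2, 5 and 6 h and overlapped them at 8, 12 and 24 h. How often ratios of other genes separate in this way was not computed. The V library of repeat A at 24 h, the lowest of its group in the level of all 3 genes, had a ratio close to that of repeat B. The SPmin library of repeat C at 24 h was the highest of its group in the ratio, as in level.

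**Figure D3:**
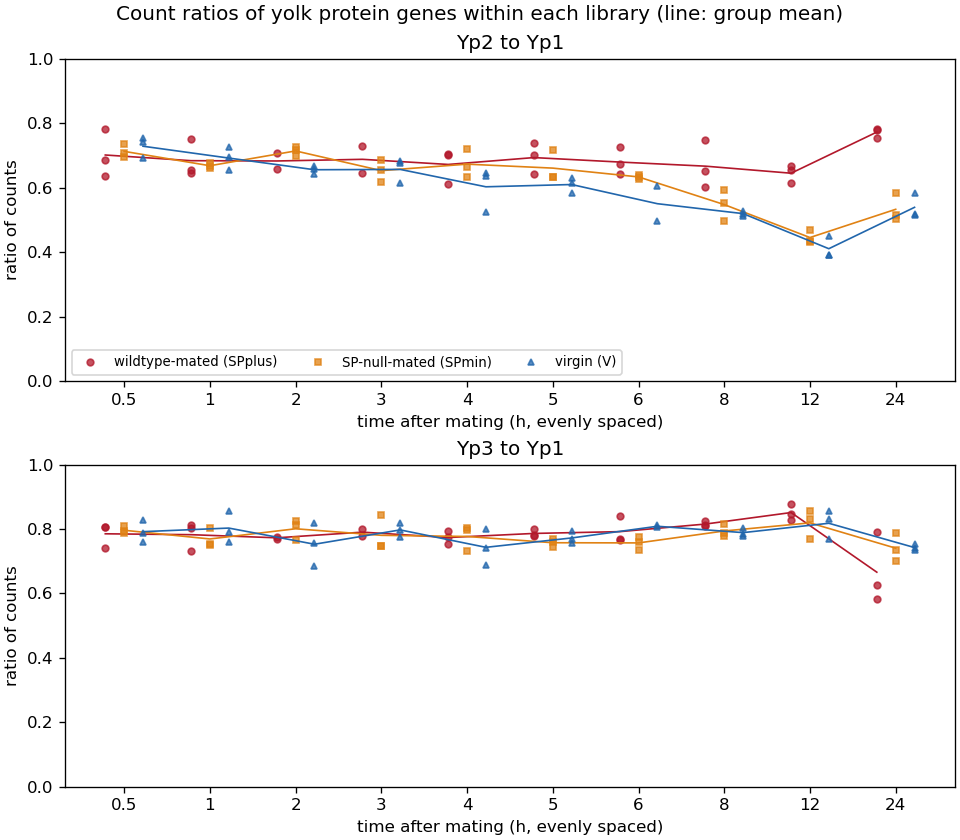
Ratio of Yp2 to Yp1 counts and of Yp3 to Yp1 counts in each library against hours after mating, with lines through the group means. The Yp2 to Yp1 means reach 0.645 in SPplus, 0.446 in SPmin and 0.411 in V at 12 h, and the Yp3 to Yp1 ratio stays between 0.582 and 0.876.

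The ratio of Yp3 to Yp1 ran from 0.582 to 0.876 over all libraries, with a median of 0.783 and a pooled SD of 0.0759 on the log2 scale. The groups overlapped at most times, and the few separations had no common direction: SPplus was above V at 8 h, SPplus above SPmin at 5 h and SPmin below V at 6 h. In SPplus the mean ratio was 0.851 at 12 h and 0.666 ± 0.11 at 24 h (SD, n = 3), and the 24 h libraries spanned 0.582 to 0.790. In SPmin and V the Yp3 to Yp1 means thus varied less over time than the Yp2 to Yp1 means. In SPplus they did not, as there the Yp2 to Yp1 means ran only from 0.645 at 12 h to 0.773 at 24 h. This contrast between the 2 ratios was not tested.

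Repeats differed more in the yolk genes than in most genes. The pooled SD within groups was 0.261 for Yp1, 0.314 for Yp2 and 0.297 for Yp3 on the log2 CPM scale, or 1.20-, 1.24- and 1.23-fold for 1 SD, against 0.122 for the median gene. Of all genes tested, 91.3%, 95.1% and 94.3% had a smaller SD than Yp1, Yp2 and Yp3. The largest group SDs were 0.461 for Yp1, 0.565 for Yp2 and 0.545 for Yp3, all in SPmin at 24 h. This spread sets the SE of about 0.25 for a Yp2 contrast and limits what 3 repeats can show. Counting error is small beside it, as even the library with the lowest yolk share held 285646 Yp2 counts.

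The 3 genes moved together between repeats. Over the 87 libraries their deviations from the group means had Pearson's r of 0.960 for Yp1 and Yp2, 0.971 for Yp1 and Yp3 and 0.952 for Yp2 and Yp3. The values of a library share its depth, its heads and its preparation. Without removing group means r was 0.896, 0.954 and 0.838 for the same pairs, so that Yp2 followed the others less closely across groups than within them. The mean deviation of the 3 genes had a correlation of 0.137 (Spearman's rho 0.196) with the deviation of log2 total counts, so depth tracked it weakly. Of the sum of squares of Yp2, 5.82% lay between repeats (5.43% for Yp1, 5.68% for Yp3 and 3.85% for the median gene), against 30.0% between times, 8.43% between treatments, 26.7% in the time by treatment term and 29.1% in the rest. For Yp1 the rest held 52.8% and for Yp3 59.3%, against 42.4% for the median gene, and treatment held 1.28% and 1.10%. Between libraries of the same letter and time, the mean standardised deviation of the 3 genes had Pearson's r of 0.312 (Spearman's rho 0.347, 27 pairs) for SPplus and V, 0.0769 (rho 0.107, 28 pairs) for SPplus and SPmin and 0.0693 (rho -0.03, 29 pairs) for SPmin and V.

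**Figure D4:**
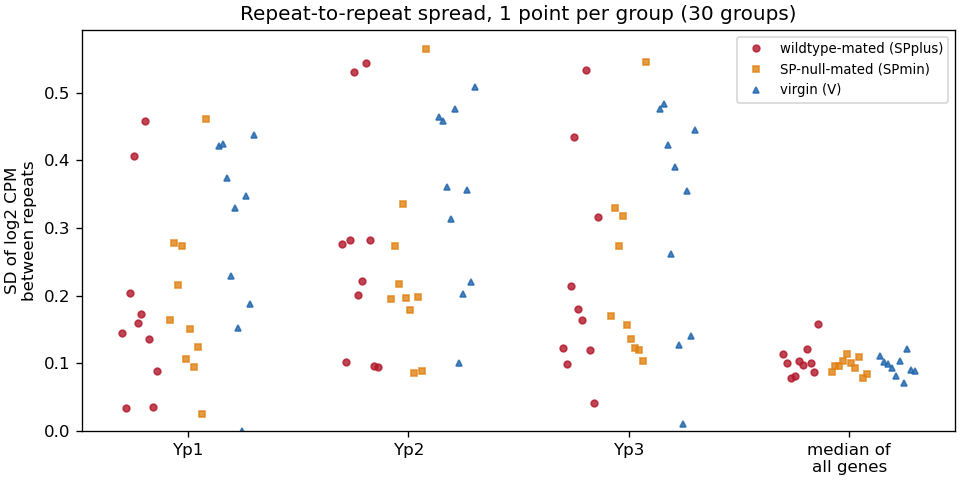
Repeat-to-repeat spread of the yolk protein genes: SD of log2 CPM among the libraries of each group, beside the median over all genes tested. Pooled over groups the SDs are 0.261 for Yp1, 0.314 for Yp2 and 0.297 for Yp3, against 0.122 for the median gene.

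The genes whose pattern was most like that of the yolk genes were ranked by Spearman's rho with the mean standardised level of Yp1, Yp2 and Yp3 over the 87 libraries, among 8691 genes of sufficient level. They were CG8360 (rho 0.762), Cpr (0.760), Cyp4d20 (0.758), CG3829 (0.751) and CG33120 (0.737), where the median over all ranked genes was -0.02. Cpr encodes the reductase that supplies electrons to cytochrome P450 enzymes, and Cyp4d20 is such an enzyme. For deviations from the group means the first were Mtpalpha (0.830), a subunit of the mitochondrial trifunctional protein of fatty acid breakdown, CG7920 (0.821), CG7560 (0.818), Cyp4d20 (0.818) and Mdh1 (0.810), the cytosolic malate dehydrogenase. These 9 genes need not share the response to mating. In the F test of all time points of SPplus against V, CG33120 (adjusted p = 0.00570) and Mtpalpha (adjusted p = 0.0104) were called, beside 28.6% of all genes. At 24 h, where 29.2% of all genes were called, CG33120 was higher in SPplus than in V, with a log2 fold change of 0.72 (SE 0.20, adjusted p = 0.00603). So were CG8360 (0.31, adjusted p = 0.0101) and CG3829 (0.47, adjusted p = 0.0477), while CG7920 was lower (-0.42, adjusted p = 0.00803). The rest were not called at that time, among them Cyp4d20, present in both lists, at -0.05 (SE 0.10, adjusted p = 0.755).

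Among 14 known regulators of the yolk genes, all tested, 5 were called at any time point in SPplus against V: Kr-h1, dsx, gce, slbo and her. In SPplus against SPmin 4 were called, the first 4 of these, and in SPmin against V 2 were called, Kr-h1 and dsx. Of all genes, 28.6%, 18.5% and 7.06% were called in these 3 tests, so that the first count was a share near that of all genes. The first count was 3 without repeat A and 2 without repeat C, and the second 2 without repeat C. At 12 h 2 were higher (4.18% of all genes) and 1 lower (2.14% of all genes) in SPplus than in V, with a list median of -0.04, beside -0.00 for all genes. At 24 h 2 were higher and 3 lower (14.6% of all genes in each direction), with a list median of -0.01, beside 0.02 for all genes. The called regulators had no shared direction.

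Kr-h1 encodes a zinc finger factor induced by juvenile hormone. At 12 h it was at 17.3, 15.8 and 18.6 CPM in SPplus, 8.57, 9.04 and 8.77 CPM in SPmin, and 7.20, 7.73 and 5.56 CPM in V. No SPplus library overlapped the others. The log2 fold change of SPplus over V was 1.35 at 12 h (SE 0.16, adjusted p = 6.57e-09) and 0.89 at 24 h (SE 0.14, adjusted p = 5.02e-06). Kr-h1 was also higher in both mated groups in the first hours. At 1 h its change over V was 0.95 in SPplus and 0.96 in SPmin, both called, at a time when no yolk gene was called. Kr-h1 overlaps CG45075 on its own strand.

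dsx, which encodes Doublesex, had 45.8, 53.5 and 53.1 CPM in SPplus at 12 h, 29.6, 29.1 and 31.8 CPM in SPmin, and 32.8, 26.3 and 26 CPM in V. Its log2 fold change of SPplus over V was 0.84 at 12 h (SE 0.13, adjusted p = 1.60e-06) but -0.02 at 24 h (adjusted p = 0.922), the time of the largest Yp2 difference. Against SPmin it was 0.75 at 12 h. Like Kr-h1, dsx was higher early without Sex Peptide, by 0.74 at 1 h and 0.93 at 2 h in SPmin over V. lds and a transposon overlap dsx on the other strand, so its counts are uncertain. Whether Kr-h1 or dsx acted on the yolk genes in these heads was not tested.

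The remaining called regulators changed by less. gce, a juvenile hormone receptor, was lower in SPplus than in V at 12 h by a log2 fold change of -0.26 (SE 0.07, adjusted p = 0.0183), and lower than in SPmin by -0.27 (adjusted p = 0.00967). It overlaps 2 antisense RNA genes. slbo, the C/EBP factor of the ovarian border cells, was lower than in V at 24 h by -0.56 (SE 0.20, adjusted p = 0.0302), at a median level of 1.82 CPM over all libraries. her, which acts upstream in sex determination, was higher than in V at 24 h by 0.18 (adjusted p = 0.0238). Of genes called at a single time alone, usp, a partner of the ecdysone receptor, was at -0.35 (adjusted p = 0.0110) and srp, a GATA factor of the fat body, at -0.34 (adjusted p = 0.0361) at 24 h. EcR, which encodes the ecdysone receptor, was at -0.01 (adjusted p = 0.930) and Met, the other juvenile hormone receptor, at -0.05 (adjusted p = 0.581).

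Of 8 genes of yolk uptake and lipoprotein traffic, all tested, 2 were called at any time point in SPplus against V, Apoltp and Mtp. In SPplus against SPmin 1 was called, Apoltp, and in SPmin against V 0 by edgeR (3 at an unadjusted p under 0.05), 2 by DESeq2 and 1 with the replicate block. The first 2 counts are smaller shares than the 28.6% and 18.5% of all genes called in the same tests, and in the third 7.06% of all genes were called. With any 1 repeat left out the first count was 1, and it was 4 by DESeq2, and the second was 0 without repeat B or C. Apoltp encodes the lipid transfer particle that loads lipid onto lipophorin in the haemolymph. At 12 h it was at 1190, 1048 and 971 CPM in SPplus, 693, 584 and 658 CPM in SPmin, and 626, 700.2 and 625 CPM in V. The SPplus libraries were all higher, as for Yp2. Its log2 fold change was 0.72 over V (SE 0.19, adjusted p = 0.0133) and 0.73 over SPmin (adjusted p = 0.00920), and it was 0.51 over V at 24 h (adjusted p = 0.0411). Over V the 12 h call was lost without each repeat in turn (0.61 without repeat A, 0.78 without B and 0.75 without C).

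Mtp, the microsomal transfer protein that assembles lipoproteins, was higher in SPplus than in V at 24 h by 0.65 (SE 0.17, adjusted p = 0.00388). It had 197, 148 and 251 CPM in SPplus and 101, 131 and 148 CPM in V, where the top V library equalled the lowest of SPplus to 3 digits. The list median in SPplus over V was 0.11 at 12 h and 0.06 at 24 h. The yolk receptor gene yl was near the floor of the table in heads, with a median of 0.863 CPM. At 24 h it was lower in SPplus than in V by -2.40 (SE 0.76, adjusted p = 0.0135). It was also lower than in SPmin, by -3.10 (SE 0.72, adjusted p = 0.00104). In the F tests of all time points yl was not called (adjusted p = 0.0653 against V and 0.0864 against SPmin).

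**Figure D5:**
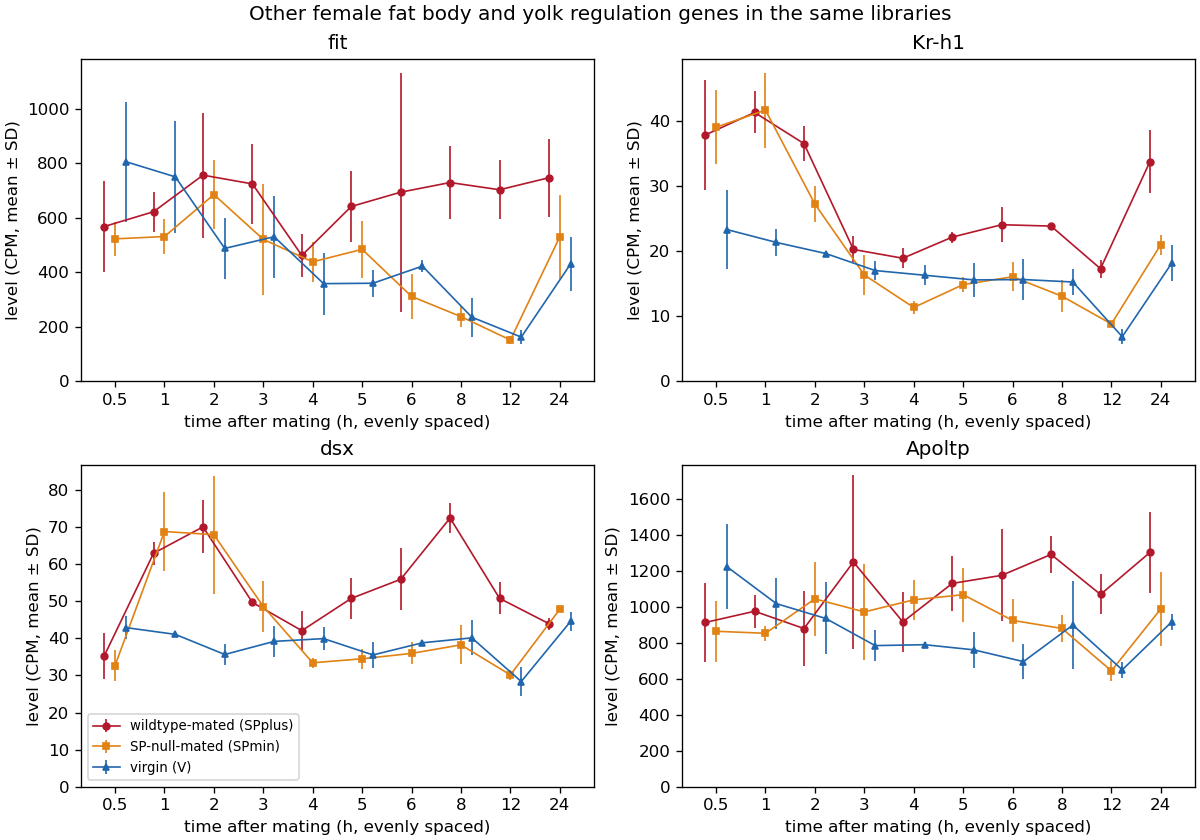
Mean level in CPM of fit, Kr-h1, dsx and Apoltp in each group against hours after mating, for SPplus, SPmin and V. Bars show the SD and lines join the group means. These 4 genes were chosen after their values were seen. Single libraries are not drawn. At 12 h the 3 SPplus libraries lie above all SPmin and V libraries for each of the 4.

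Of 12 adult fat body genes 11 were tested, and Pepck1 was not analysed here. At any time point 6 were called in SPplus against V (fit, FASN1, ACC, bmm, Ilp6 and tobi), 4 in SPplus against SPmin (fit, ACC, Ilp6 and tobi) and 3 in SPmin against V (ACC, bmm and Ilp6), beside 28.6%, 18.5% and 7.06% of all genes. Without repeat B these counts were 2, 1 and 1, without repeat C 3, 2 and 2, and without repeat A 5, 3 and 1. At 12 h 1 was higher (4.18% of all genes) and none lower (2.14% of all genes) in SPplus than in V, with a list median of -0.06. At 24 h 2 were higher and 3 lower (14.6% of all genes in each direction), with a list median of 0.35. The summed level of the list at 12 h was 16284 to 20465 CPM in SPplus, 16776 to 17612 in SPmin and 18057 to 20364 in V, so that the groups overlapped. At 24 h it was 8803 to 13134 CPM in SPplus, 10721 to 23020 in SPmin and 11150 to 16145 in V.

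fit, a female-enriched gene of the head fat body whose product is known to act as a satiety signal, had the largest 12 h difference of these genes. It was at 785, 742 and 581 CPM in SPplus, 166, 140 and 147 CPM in SPmin, and 171, 181 and 133 CPM in V. The log2 fold change of SPplus over V was 2.12 (SE 0.31, adjusted p = 9.29e-07) at 12 h and 0.79 (SE 0.29, adjusted p = 0.0361) at 24 h. fit was low at 12 h in SPmin and V heads and held up in SPplus heads, as Yp2 was. It overlaps asRNA:CR45046 on the other strand and CG31465 on its own.

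The other called genes of the list moved in both directions. FASN1, fatty acid synthase, was higher in SPplus than in SPmin at 12 h by 0.54 (SE 0.18, adjusted p = 0.0435), and stood 0.37 above V (adjusted p = 0.264). At 24 h it was lower in SPplus, by -0.64 against V (adjusted p = 0.00600) and by -0.57 against SPmin (adjusted p = 0.0126). ACC, acetyl-CoA carboxylase, was lower in SPplus than in V at 24 h by -0.64 (adjusted p = 0.000781). ACC was also lower than in SPmin at 24 h, by -0.76. bmm, the brummer triglyceride lipase, was lower than in V at 2 h in SPplus, by -1.29 (SE 0.27), and in SPmin, by -0.98. Ilp6, an insulin-like peptide of the fat body, was higher in SPplus at 24 h by 0.68 (adjusted p = 0.000471), and in SPmin at 2 h by 0.81. tobi, a glucosidase gene, was lower in SPplus at 24 h than in V by -1.75 (SE 0.68, adjusted p = 0.0449) and than in SPmin by -2.30. ACC, Ilp6 and tobi each overlap a gene on the other strand. In the separate fit of the 24 h libraries, the 24 h calls over V of her, slbo, Apoltp, Mtp, fit, FASN1, Ilp6 and tobi were lost, and those of Kr-h1 (adjusted p = 0.0113) and ACC (adjusted p = 0.0362) were kept.

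Markers of other tissues were examined because follicle cells also make yolk protein RNA. Of 20 follicle cell and eggshell genes, 2 were tested, Cp7Fa and Cp7Fb, with a summed level of 3.19 to 5.92 CPM, and neither had an unadjusted edgeR p under 0.05 in SPplus against V or SPmin at 12 or 24 h. In SPmin against V 1 of the 2 was called at any time point, beside 7.06% of all genes. The other 18 were not analysed here. At 12 h the sum was 4.63 to 5.28 CPM in SPplus, 4.47 to 5.34 in SPmin and 3.58 to 5.72 in V. Of 7 germline genes 1 was tested, grk, at 16.7 to 26.7 CPM, and it was higher in SPplus than in SPmin at 24 h by 0.31 (adjusted p = 0.00781). On the other strand grk overlaps Akap200, and Cp7Fa and Cp7Fb each overlap CG33223, so the counts of these markers are uncertain. The 6 midgut genes were not analysed here. Of 4 haemocyte genes 3 were tested, with a summed level of 365 to 655 CPM. In SPplus against V edgeR called 0 of them at 12 and 24 h, where 0 and 1 had an unadjusted p under 0.05. Of all genes 6.32% and 29.2% were called at these times. NimC1 was higher in SPplus than in SPmin at 24 h by 0.49 (adjusted p = 0.00274). roX1, a male dosage compensation RNA, was at a median of 3.85 CPM and was higher in SPplus than in V at 24 h by 0.56 (adjusted p = 0.0348).

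Muscle, glial and some neuronal transcripts also differed beside the yolk genes. Of 5 thorax muscle genes 3 were tested. All 3 were lower in SPplus at 24 h than in V, with a median log2 fold change of -0.78. All 3 were also lower than in SPmin, with a median of -0.58. Each was called in both comparisons, beside 14.6% of all genes called lower against V and 28.3% called in either direction against SPmin. Act57B was lower by -0.78 (adjusted p = 8.18e-07) and Mhc by -0.54 (adjusted p = 0.00101) against V. Their summed level was 1830 to 2973 CPM in SPplus, 3051 to 3309 in SPmin and 3112 to 4270 in V. At 12 h the sums were 3046 to 3591 CPM in SPplus, 2993 to 3397 in SPmin and 2988 to 3747 in V, and no gene of the 3 had an unadjusted p under 0.05. Of the 10 head markers, 1 was called at 12 h in SPplus against V (6.32% of all genes) and 1 against SPmin (9.82% of all genes). Each count was a share near that of all genes. In both comparisons the gene was Gs2, a glial glutamine synthetase. At 12 h Gs2 was higher in SPplus by 0.44 over V (SE 0.09, adjusted p = 0.000241) and by 0.41 over SPmin (adjusted p = 0.000527). It was also higher at 8 h, by 0.29 over V and 0.39 over SPmin, and at 24 h, by 0.24 over V (adjusted p = 0.0249) and 0.34 over SPmin. At 24 h repo, another glial gene, was lower in SPplus than in V by -0.60 (adjusted p = 0.000742) and than in SPmin by -0.63 (adjusted p = 0.000404). The neuronal genes brp (-0.24, adjusted p = 0.0226) and nSyb (-0.20, adjusted p = 0.0377) were also lower than in SPmin at 24 h. Neither was called against V, and the neuronal genes elav and Syt1 were called in neither comparison. At 24 h 29.2% of all genes were called against V and 28.3% against SPmin. The summed level of the head markers at 12 h was 31481 to 33311 CPM in SPplus, 29702 to 31291 in SPmin and 31263 to 33108 in V. The part of these muscle, glial and neuronal differences in the yolk gene values was not tested.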

How the data were processed

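Raw gene-level read counts, 1 column per library, are the values the authors deposited. Per the labels' protocols, heads were dislodged from frozen females, and poly(A)-selected, stranded libraries were prepared. The submitters' processing notes name Trimmomatic 0.39, STAR 2.7.5a, HTSeq 0.11.2 and edgeR and the builds dm6 and BDGP6, with no role or order. The sources used here do not give filters or the use of strand in counting. Each gene had at least 10 counts in some library. A second deposited count table of 16011 exon bins held no yolk protein gene and was not used.

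Counts were analysed with R 4.3.3, edgeR 4.0.16 and limma 3.58.1. edgeR's filterByExpr, given the 30 groups, a count minimum of 10 and a total minimum of 15, kept 9024 of 9027 genes. TMM scaled the libraries. The quasi-likelihood model (glmQLFit, robust) had 1 mean for each group and used all 87 libraries, so that the groups share 1 estimate of the spread. Contrasts were tested with glmQLFTest and adjusted by the Benjamini-Hochberg method over all genes tested, and an adjusted p under 0.05 is a call. The SE is the absolute log2 fold change over the square root of F. Log2 CPM used a prior count of 2. Intervals and p-values measure the spread between these libraries. No 2 libraries of a group agreed within sampling noise (lowest chi-square per degree of freedom 6.68). Gene symbols were matched for 8977 identifiers, and 50 had none.

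Yolk protein sequences were not used here. Named genes are the 3 members, the genes of the lists of regulators, uptake and lipoproteins, and adult fat body that were called in an any-time test, and the 5 genes with the highest rho to the members, by level and by deviation, of those with a mean of at least 1 log2 CPM. Some further genes were named after their values were seen: usp, srp, EcR, Met, yl and the markers of head cells and other tissues. The members and lists were chosen with earlier results of these data known.

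The model was tested on simulated data for SPplus against V at 24 h with 9023 genes: 99 of 100 genes changed by 1 on the log2 scale and 81 of 100 changed by 0.5 were called, and 11 of 8823 unchanged genes. The changed genes were drawn at random. The yolk genes spread more than most genes (pooled SD 0.261 to 0.314, against 0.122 for the median gene), so these rates need not hold for them. The repeat letters pair the samples because the study's design text says that the whole series was repeated. Same-letter libraries of a time point had correlations of their deviations from -0.229 to 0.335 (84 pairs, median 0.0784, 36 over 0.1). Alternatives were size factors by median of ratios (RLE), DESeq2 1.42.0, no filter, the replicate block, a separate fit per time point and each repeat left out. After the data were seen, each of the 18 libraries of SPplus, SPmin and V at 12 and 24 h was also left out in turn.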

Additional observations from a re-analysis of the deposited data

Results flagged for a closer look

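The difference in Yp2 between SPplus and V heads was not the same at all time points, by the F test of the change of the difference with time (edgeR, adjusted p = 0.0122). The log2 fold change of SPplus over V was -0.37 at 0.5 h and 1.13 at 24 h. Leaving out a repeat gave adjusted p-values from 0.0471 to 0.224. Groups of 2 or 3 libraries are too small for a test of single outlying samples.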

How the results depend on the processing

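Of 1188 values for the 3 yolk genes under the alternatives, 1155 stayed on the same side of the threshold, 23 lost a call and 10 gained one; no called value changed sign. RLE scaling and no filter on low counts changed no call of these genes. Fitted from the libraries of 24 h alone, 3 log2 fold changes lost their call: Yp1 in SPplus over V (0.61), Yp2 in SPplus over V (1.11) and Yp2 in SPplus over SPmin (0.87). With the replicate block Yp2 in SPplus over SPmin gained the mean over time points (0.23) and the change with time (adjusted p = 0.0152), and the block changed no other call of these genes. DESeq2 also called that change with time (adjusted p = 0.0269). The causes were not tested.

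With a repeat or a single library left out, the log2 fold change of SPplus over V ran from 0.40 to 0.82 for Yp1 at 24 h. For Yp2 it ran from 0.84 to 1.06 at 12 h and from 0.90 to 1.39 at 24 h. Those of Yp2 in SPplus over SPmin ran from 0.88 to 1.01 at 12 h and from 0.68 to 1.30 at 24 h. Tests over several time points were refitted only with a whole repeat left out. In these fits the mean Yp2 difference of SPplus over V ran from 0.21 to 0.34. The adjusted p-values of Yp2 ran from 0.00323 to 0.0688 at any time point and from 0.0471 to 0.224 for the change with time in SPplus against V. In SPplus against SPmin they ran from 0.0163 to 0.271 and from 0.0307 to 0.502. For time in SPmin they ran from 0.00549 to 0.102, and for time in V from 0.0118 to 0.0299. Of 897 values for the named list genes, 803 stayed on the same side, 83 lost a call and 11 gained one. Exon sums could not be run, as no exon bin belongs to a yolk gene. For the yolk genes, with at least 285646 Yp2 counts in a library, the spread between 3 libraries limits these values more than depth does; for list genes of low level such as slbo, with a median of 1.82 CPM, depth limits them too.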
